A study of Mus musculus with 6 samples.

Results

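A set of 10 genes for enzymes and cofactors that write histone marks were followed in blood stem and progenitor cells of mice with and without Tet1. They were chosen by name, and every probe set (the group of short probes that gives 1 value for a transcript on the array) whose annotation gives exactly 1 gene symbol equal to a member was used. The 10 genes had 28 probe sets, among 18193 genes and 45037 probe sets in all. The cells were LSK cells, which lack mature lineage markers and carry Sca-1 and Kit, sorted from the marrow of mice aged 6 months. The 3 Tet1 KO samples and 3 WT samples were each put on 1 Affymetrix array. The strain is spelled CD57BL/6 in the labels for all 6 samples, and no treatment is named for either group. How the Tet1 allele was made, whether it was lost in all tissues and whether marrow of several mice was pooled are not given in the sources used here. Nothing says that the replicates came from separate mice, so p-values measure only the spread between these samples, which may be technical.

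The members act on the histone tails of chromatin. Kmt2a, Kmt2b, Kmt2c and Kmt2d methylate lysine 4 of histone H3, a mark of promoters and enhancers, within large complexes that share core subunits. Kmt2e carries the family name and a SET domain, but is not established as a methyltransferase of that lysine and is not part of those complexes. Setd2 and Nsd1 methylate another lysine of the same histone along gene bodies and between genes, and Crebbp and Ep300 are a paralogous pair of acetyltransferases at enhancers. Asxl1 is neither kind of enzyme: it is a scaffold that activates the deubiquitinase Bap1, so a joint name as methyltransferases and acetyltransferases does not hold for it, nor firmly for Kmt2e. In human B-cell lymphoma KMT2D, CREBBP and EP300 are often mutated, in acute leukaemia KMT2A is often rearranged, and ASXL1 is often mutated in myeloid disease. Tet1, the gene removed here, encodes an enzyme that oxidises 5-methylcytosine, which in mammals lies mostly at CpG, a C followed by a G.

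Promoter sequence in the RefSeq tables of build GRCm38.p6 was found for 7 of the 10 genes. CpG was counted in the 250 bases before the start that the promoter table uses, which need not be the outermost annotated start, and the motif reads the same on either strand. By the annotated gene spans of that build, the windows of Crebbp and Kmt2d lay wholly inside the gene, those of Kmt2a, Kmt2c, Setd2 and Ep300 partly so, and that of Asxl1 wholly outside it. Counts ran from 11 to 48 with a median of 29, against a median of 6 over 32851 promoters of the same length, of which 92.1% hold at least 1. The members with the most and the fewest are shown, with CpG in capitals and the 5′ end first, limited to bases outside the annotated gene. The Kmt2c stretch lies on the minus strand at chr5:25498856-25499033 and holds 32 CpG, and the Asxl1 stretch lies on the plus strand at chr2:153345580-153345829 and holds 11.
Kmt2c: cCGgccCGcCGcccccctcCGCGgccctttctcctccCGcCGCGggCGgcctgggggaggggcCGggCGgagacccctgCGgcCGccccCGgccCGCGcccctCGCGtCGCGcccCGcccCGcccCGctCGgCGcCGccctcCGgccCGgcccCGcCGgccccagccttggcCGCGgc
Asxl1: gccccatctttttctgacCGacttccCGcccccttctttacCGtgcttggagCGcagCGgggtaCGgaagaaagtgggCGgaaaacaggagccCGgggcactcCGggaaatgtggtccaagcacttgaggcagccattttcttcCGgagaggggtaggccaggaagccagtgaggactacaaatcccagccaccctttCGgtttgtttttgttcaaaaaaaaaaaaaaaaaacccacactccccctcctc
Over its full window, of which 72 bases lay inside the annotated gene, Kmt2c had 48 CpG, more than 99.8% of all promoters in the table. Crebbp, with all 250 bases inside the gene, had 44, more than 99.5%. Setd2 had 31, Kmt2a 29, Kmt2d 26 and Ep300 25. Asxl1, with 11, had more than 64.4% of all promoters. No methylation was measured in these samples, so the counts only describe the sequence.

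Tet1 itself was read as a check of the genotype. Its probe set 1455425_at read 6.26, 5.63 and 5.51 in Tet1 KO, against 6.89, 6.80 and 6.75 in WT (log2 intensity). At all 4 Tet1 probe sets the highest Tet1 KO array read below the lowest WT array, with differences from -1.68 to -0.93, though their adjusted limma p-values were 0.686. Tet1 KO thus read at 0.31 to 0.53 of the WT level, a lower signal and not its absence. At 1455425_at all 6 arrays read above their brightest bacterial control, a guide to background. Tet1 KO replicate 2 stood apart from the other arrays. Over all probe sets it correlated with them at r = 0.936 to 0.943, whereas every other pair of arrays correlated at 0.969 or more. Its brightest bacterial control read 4.87, against at most 4.37 on the other arrays. The 3′ minus 5′ difference of the Gapdh control probe sets, a guide to RNA quality, was 1.22 on that array and 1.36 to 1.90 on the others (log2), and that of the actin controls was -0.33 there and -0.15 to 0.09 on the others. The part of these control values in the member differences was not tested.

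Kit, which helps define LSK cells, read 9.68 to 9.95 in Tet1 KO and 9.83 to 10.02 in WT, and Cd34, carried by many of them, read 10.57 to 10.89 in Tet1 KO and 10.61 to 10.98 in WT. The other LSK markers were less even. Slamf1 differed by 0.78 and read 7.97 on Tet1 KO replicate 2, above all other arrays, Cd48 differed by -0.41 and Procr by -0.13, and Flt3 read 9.48 to 11.55 in Tet1 KO and 9.95 to 10.60 in WT. Ly6a, the gene for Sca-1, was not analysed here. All 4 T and NK cell markers used were on the higher side in Tet1 KO. Their summed log2 levels were 15.9 to 17.6 in Tet1 KO and 15.1 to 15.7 in WT, without overlap, and 3 of them, Cd3g, Cd3e and Ncr1, read under the bacterial control on every array. The summed levels overlapped between the groups for the 4 B cell markers (21.0 to 22.3 in Tet1 KO, 21.1 to 22.0 in WT), the 4 granulocyte and monocyte markers (20.8 to 26.0 in Tet1 KO, 20.3 to 24.3 in WT) and the 3 erythroid markers (19.5 to 21.1 in Tet1 KO, 21.0 to 21.3 in WT). Tet1 KO replicate 2 had the highest granulocyte and monocyte sum and the lowest erythroid sum, but the markers of each list did not move together. Relative to the WT mean, Ltf was at 2.06, Camp at 1.18, Ngp at 0.53 and Itgam, under the bacterial control there, at -0.46. Car1 was at -2.31 and Epor at -0.11, but Klf1 at 0.70. On Tet1 KO replicate 1, Car1 was at 0.70, Klf1 at -1.09 and Epor, under the bacterial control there, at -1.19. Of the B cell markers, 2 were higher, Pax5 at 0.42 and Cd79a at 0.22, and 2 lower, Cd79b at -0.42 and Ms4a1 at -0.03. Ms4a1 read under the bacterial control on every array. No marker was listed at 0, and the part of other cell types in the member differences was not tested. In bulk samples such as these, fewer cells of a type and less RNA per cell cannot be told apart.

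None of the 10 genes passed the test for a difference between Tet1 KO and WT. In limma, fitted over all 45037 probe sets, 0 of the 28 member probe sets had a Benjamini-Hochberg adjusted p under 0.05, and the share over all probe sets was 0%. Adjusted limma p-values of the members ran from 0.686 to 0.990. At an unadjusted limma p under 0.05 there was 1 member probe set, of Crebbp, out of 28, where 6.81% of all probe sets passed. It was lower, as were 3.58% of all probe sets at that threshold, and 0 members were higher, against 3.23% of all. Of the 28, 18 read lower and 10 higher in Tet1 KO, with a median difference of -0.09 and a range from -0.79 to 0.33 (log2). The median over all probe sets was 0.06, but over the 21594 probe sets in the same range of mean level it was -0.08, and 59.5% of those were lower, against 64.3% of the members. Without Tet1 KO replicate 2, 14 of 28 were lower and the median was -0.0062, where 55.6% of the probe sets in that range of level were lower, with a median of -0.04. Without that array 2 of the 28 were at an unadjusted limma p under 0.05, where 8.01% of all probe sets were.

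The groups did not overlap at 3 of 28 member probe sets, where they did not at 16.2% of all probe sets. Tet1 KO was the lower group at 2 of them, 1 of Crebbp and 1 of Kmt2e, as it was at 6.29% of all, and the higher group at 1, of Kmt2c, as it was at 9.96% of all. With 3 arrays a group, the median standard error of a member difference was 0.24 (log2), and an exact permutation test of 1 probe set cannot go below p = 0.1.

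**Figure D1:**
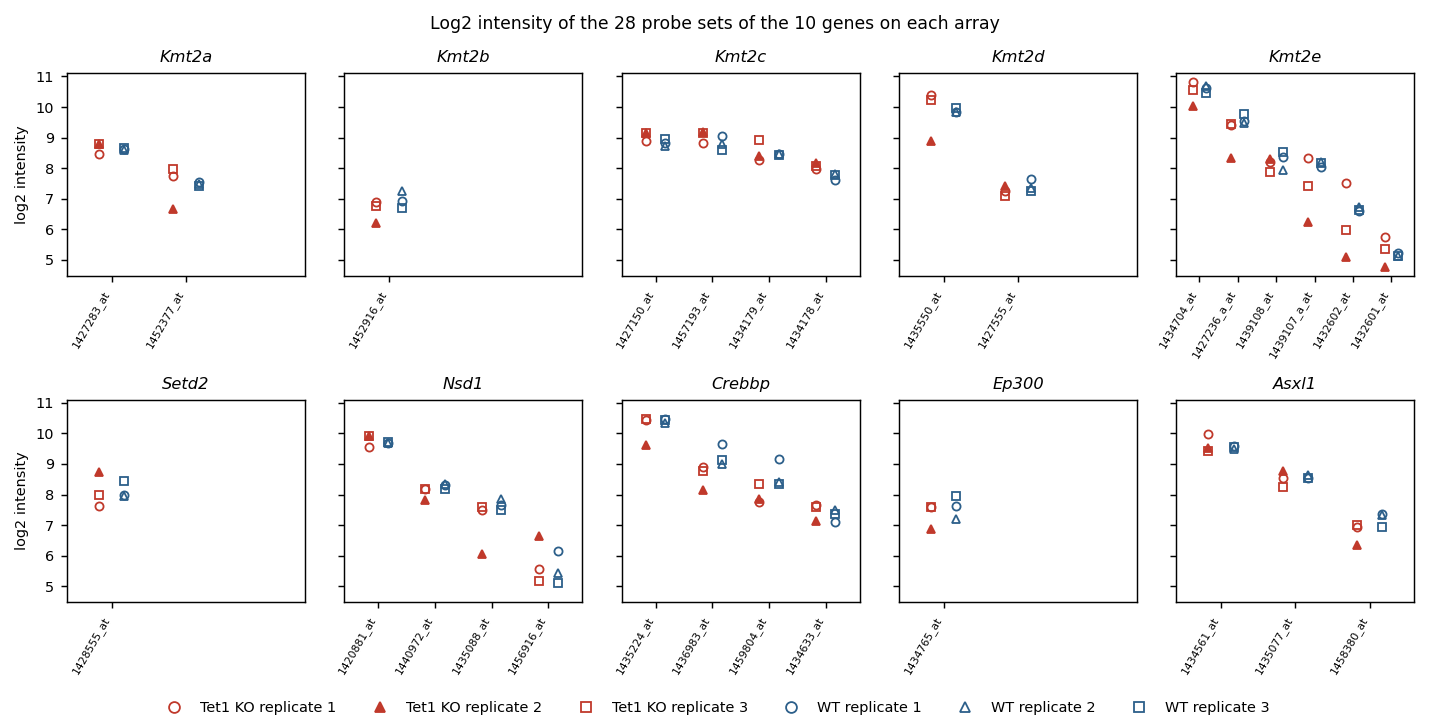
Log2 intensity (vertical axis) of each probe set (horizontal axis, 1 panel per gene) on every array, with Tet1 KO in red on the left and WT in blue on the right of each probe set, and Tet1 KO replicate 2 as the filled triangle. The WT arrays lie close together at most probe sets, while Tet1 KO replicate 2 lies farthest down at 14 of 28 and farthest up at 6 of 28; heights of different probe sets cannot be set against each other.

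Among the KMT2 genes, Kmt2a, the founding member of the family in mammals, which maintains Hox gene expression in blood stem cells, differed little at its brighter probe set. That probe set, 1427283_at, read 8.46, 8.79 and 8.79 in Tet1 KO, against 8.64, 8.59 and 8.65 in WT. The difference was 0.05 (SE 0.16, 95% interval -0.32 to 0.43, limma adjusted p = 0.908). The groups overlapped, and 1 Tet1 KO array lay below all WT arrays while the other 2 lay above them.

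The dimmer Kmt2a probe set, 1452377_at, read 7.74, 6.65 and 7.97 in Tet1 KO, against 7.55, 7.49 and 7.42 in WT. Tet1 KO replicates 1 and 3 were above all WT arrays and replicate 2 was below all of them. The difference was -0.03 (SE 0.34) with all arrays and 0.37 (SE 0.15) without Tet1 KO replicate 2, at an adjusted limma p of 0.620.

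Kmt2b, the closest paralogue of Kmt2a, had 1 probe set. It read 6.90, 6.21 and 6.75 in Tet1 KO, against 6.91, 7.27 and 6.69 in WT. Tet1 KO replicate 2 was again the lowest array, and the difference of -0.33 (SE 0.25) was -0.13 without it.

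Kmt2c, which places the monomethyl mark at enhancers, read higher in Tet1 KO at all 4 of its probe sets, with none past the test. The clearest was 1434178_at, with 7.97, 8.18 and 8.07 in Tet1 KO, against 7.61, 7.83 and 7.78 in WT. All Tet1 KO arrays lay above all WT arrays there. The difference of 0.33 (SE 0.15, 95% interval -0.02 to 0.69) is a 1.26-fold higher level, with an unadjusted limma p of 0.0604 and an adjusted one of 0.686. The brightest probe set, 1427150_at, read 8.89, 9.15 and 9.15 in Tet1 KO, against 8.82, 8.71 and 8.94 in WT, a difference of 0.24 (SE 0.16). Replicates 2 and 3 of Tet1 KO were above all WT arrays, and replicate 1 lay within their range. The other probe sets gave 0.23 (SE 0.18) for 1457193_at and 0.08 (SE 0.20) for 1434179_at, with overlap at each. Of the 10 genes, Kmt2c was the only one with more than 1 probe set and all of them on the higher side. Without Tet1 KO replicate 2 its 4 differences were 0.15 to 0.28, and without Tet1 KO replicate 3 that of 1434179_at was -0.11. Probe sets of 1 gene share their RNA and do not count as replicates.

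Kmt2d, the paralogue of Kmt2c and the member of the family most often mutated in human B-cell lymphoma, differed between arrays of the same genotype more than between genotypes. Its brightest probe set, 1435550_at, read 10.38, 8.88 and 10.23 in Tet1 KO, against 9.83, 9.82 and 9.97 in WT. Tet1 KO replicates 1 and 3 lay above all WT arrays and replicate 2 lay below all of them by almost a whole log2 unit. The means were 9.83 ± 0.82 in Tet1 KO and 9.87 ± 0.09 in WT (SD, n = 3 each). The difference was -0.04, and its 95% interval ran from -0.99 to 0.90. Without Tet1 KO replicate 2 the difference was 0.43 (SE 0.14), with an unadjusted limma p of 0.0242 and an adjusted one of 0.609. The other Kmt2d probe set, 1427555_at, did not share that pattern. It read 7.24, 7.42 and 7.08 in Tet1 KO, against 7.66, 7.34 and 7.25 in WT, a difference of -0.17 (SE 0.18), or -0.26 without Tet1 KO replicate 2. The probe sets of this gene thus took opposite signs once that array was left out.

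Kmt2e is known mainly as a chromatin regulator needed in blood formation. It had 6 probe sets, more than any other member, and 5 of them read lower in Tet1 KO. The brightest, 1434704_at, read 10.80, 10.03 and 10.56 in Tet1 KO, against 10.61, 10.69 and 10.46 in WT. The groups overlapped, and the difference of -0.12 (SE 0.23) was 0.10 without Tet1 KO replicate 2. At 1427236_a_at the values were 9.41, 8.33 and 9.44 in Tet1 KO, against 9.54, 9.47 and 9.78 in WT. Here the groups did not overlap, but the lowest WT array lay only just above 2 of the Tet1 KO arrays, and the difference of -0.54 (SE 0.32) was -0.17 without Tet1 KO replicate 2. The lowest difference of all 28 was at 1439107_a_at, with 8.35, 6.26 and 7.43 in Tet1 KO, against 8.04, 8.19 and 8.18 in WT. The Tet1 KO arrays there spread from above the WT arrays to far below them, so that the difference of -0.79 had a 95% interval of -1.96 to 0.38 (limma adjusted p = 0.686) and was -0.25 without Tet1 KO replicate 2. The remaining 3 gave -0.15 for 1439108_at, -0.46 for 1432602_at and 0.14 for 1432601_at, each with overlap. Of these, 1432602_at read 7.52, 5.09 and 5.98 in Tet1 KO, against 6.59, 6.73 and 6.64 in WT. Its Tet1 KO arrays had an SD of 1.23, the widest of any member, against 0.07 in WT. The dimmest, 1432601_at, was under the bacterial control on Tet1 KO replicate 2, the only array on which any member was. Without Tet1 KO replicate 2, 3 of the 6 Kmt2e probe sets were lower and 3 higher.

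**Figure D2:**
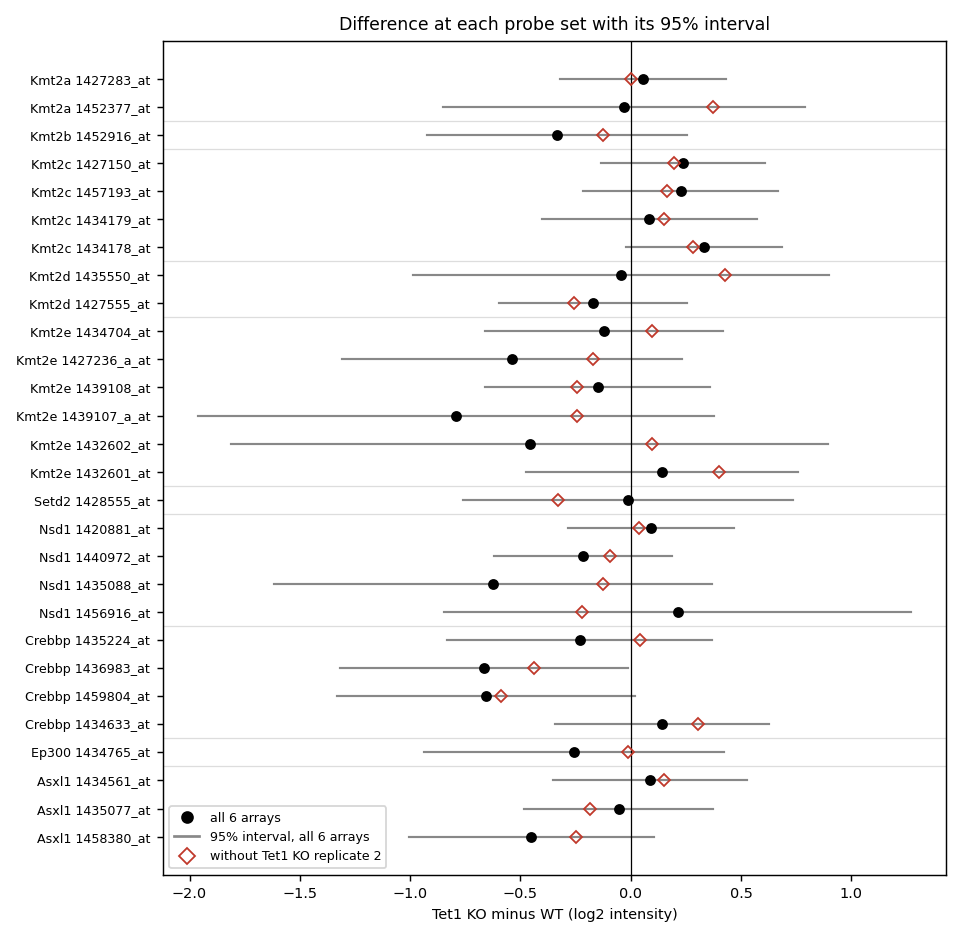
Difference of Tet1 KO minus WT (horizontal axis, log2 intensity) at each probe set (rows), as black points with 95% limma intervals from all 6 arrays, and as open red diamonds without Tet1 KO replicate 2. The interval of 1 probe set, Crebbp 1436983_at, leaves out 0, and the diamonds of 6 probe sets lie on the other side of 0 from their points.

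Setd2, the enzyme that trimethylates histone H3 within transcribed genes, had 1 probe set. It read 7.63, 8.74 and 7.98 in Tet1 KO, against 7.99, 7.95 and 8.45 in WT, a difference of -0.01 (SE 0.31). Tet1 KO replicate 2 was the highest of all 6 arrays here, unlike at Kmt2d 1435550_at, and without it the difference was -0.33 (SE 0.22). Nsd1, which dimethylates the same lysine between genes, had 4 probe sets, of which 2 were lower and 2 higher. The brightest, 1420881_at, read 9.57, 9.90 and 9.90 in Tet1 KO, against 9.69, 9.69 and 9.72 in WT. The WT arrays were almost equal, and the Tet1 KO arrays lay on either side of them, so that the difference was 0.09 (SE 0.16), against -0.13 for the mean of the 4 probe sets. At 1435088_at the values were 7.50, 6.04 and 7.58 in Tet1 KO, against 7.64, 7.84 and 7.51 in WT. The difference of -0.62 (SE 0.42) lay almost wholly on Tet1 KO replicate 2 and was -0.12 without it. At 1456916_at that array went the other way, with 5.56, 6.66 and 5.16 in Tet1 KO, against 6.17, 5.44 and 5.12 in WT. The difference was 0.21 (SE 0.44), and -0.22 without Tet1 KO replicate 2. The fourth, 1440972_at, gave -0.22 (SE 0.17).

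Crebbp, an acetyltransferase recruited by many transcription factors, read lower in Tet1 KO at 3 of 4 probe sets. The 1 member probe set at an unadjusted limma p under 0.05 was 1436983_at, with 8.89, 8.14 and 8.77 in Tet1 KO, against 9.67, 8.99 and 9.13 in WT. All Tet1 KO arrays lay below all WT arrays. The difference of -0.67 (SE 0.27, 95% interval -1.32 to -0.01) puts Tet1 KO at 0.63 of the WT level, with an unadjusted limma p of 0.0465 and an adjusted one of 0.686. It was -0.44 without Tet1 KO replicate 2, and leaving out WT replicate 1 gave -0.46. At 1459804_at the values were 7.75, 7.84 and 8.35 in Tet1 KO, against 9.16, 8.40 and 8.34 in WT. The highest Tet1 KO array and the lowest WT array were nearly equal, and the difference was -0.66 (SE 0.28, limma adjusted p = 0.686), or -0.39 without WT replicate 1. The other Crebbp probe sets did not share this. The brightest, 1435224_at, read 10.44, 9.63 and 10.46 in Tet1 KO, against 10.47, 10.32 and 10.44 in WT. Only Tet1 KO replicate 2 was below the WT range, and the difference of -0.23 (SE 0.25) was 0.04 without it. The dimmest, 1434633_at, gave 0.14 (SE 0.20), or 0.31 without Tet1 KO replicate 2, and leaving out WT replicate 1 gave 0.04. Differences within this gene thus ran from -0.67 to 0.14 with all arrays.

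Ep300, the paralogue of Crebbp, had 1 probe set, which read 7.60, 6.86 and 7.58 in Tet1 KO, against 7.62, 7.21 and 7.97 in WT. Tet1 KO replicates 1 and 3 lay within the WT range and replicate 2 below it. The difference was -0.26 (SE 0.28, 95% interval -0.94 to 0.42), and -0.01 without Tet1 KO replicate 2.

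Asxl1 had 3 probe sets. The brightest, 1434561_at, read 9.97, 9.51 and 9.44 in Tet1 KO, against 9.58, 9.50 and 9.57 in WT, a difference of 0.09 (SE 0.18), against -0.14 for the mean of the 3 probe sets. Only Tet1 KO replicate 1 was far from the WT arrays there, on the higher side. The second, 1435077_at, gave -0.05 (SE 0.18). The dimmest, 1458380_at, read 6.92, 6.36 and 7.0 in Tet1 KO, against 7.37, 7.34 and 6.93 in WT. The groups overlapped by a narrow margin, and the difference of -0.45 (SE 0.23, limma adjusted p = 0.686) was -0.25 without Tet1 KO replicate 2.

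The Tet1 KO arrays were more spread than the WT arrays at most member probe sets, as they were at most probe sets of like level. The SD was larger in Tet1 KO than in WT at 23 of 28 member probe sets (82.1%) and at 74.9% of the 21594 probe sets in the same range of level. Tet1 KO replicate 2 was the lowest of the 6 arrays at 14 of 28 and the highest at 6 of 28. In that range of level it was the lowest at 38.1% and the highest at 24.8%. It lay more than 1 log2 unit from the WT mean at 6 of 28 member probe sets, where 19.8% of the probe sets in that range did. No other array did so at any member. In that range of level the shares were 3.83% and 4.91% on Tet1 KO replicates 1 and 3, and at most 0.88% on the WT arrays. Set against the WT mean of each probe set, the 28 had medians of -0.03, -0.42 and -0.08 on Tet1 KO replicates 1, 2 and 3. The probe sets in that range of level had medians of -0.05, -0.15 and -0.04 on the same arrays. The sign of the difference at the brightest probe set was negative for 6 of the 10 genes, and for 3 of the 10 without Tet1 KO replicate 2. Over all genes 43.5% were lower, and 47.0% without that array. Among the probe sets in that range of level the shares were 59.5% and 55.6%.

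**Figure D3:**
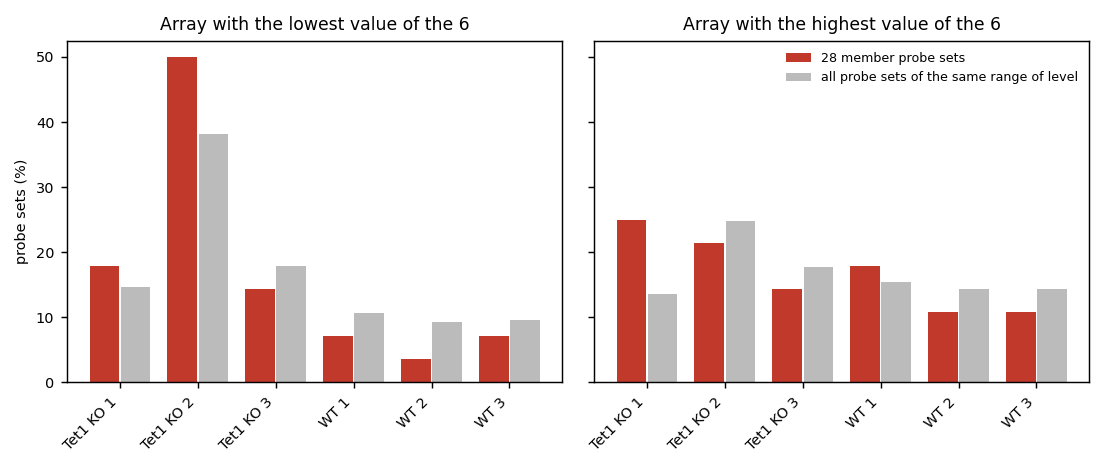
Share of probe sets (vertical axis, %) at which each array (horizontal axis) had the lowest value of the 6 (left) or the highest (right), for the 28 member probe sets in red and the 21594 probe sets in the same range of mean level in grey. Tet1 KO replicate 2 was the lowest at 14 of the 28 members and at 38.1% of the probe sets of like level.

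Genes related to the members, called partner genes here, were taken from 6 lists, with 1 probe set per gene, the brightest. The lists hold complex subunits, binding factors, other enzymes of the same classes and genes that need Kmt2a. Of 71 genes listed, 66 were used, and 39 of them read lower and 27 higher in Tet1 KO. Their median was -0.09, and 0 had an adjusted limma p under 0.05, as over all genes (0%). At an unadjusted limma p under 0.05 there were 2 lower and 0 higher, where 3.70% of all genes were lower and 3.02% higher at that threshold. Of the 66, 10 had every Tet1 KO array below the WT arrays and 3 had every one above. Over all genes 6.88% were lower and 10.3% higher in that way, and shares of this kind at like level were not taken.

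Among 16 subunits of the KMT2 and SET1 complexes, 11 read lower and 5 higher (median -0.09), with 0 at an unadjusted limma p under 0.05. Ash2l, a core subunit shared by these complexes, read 8.66, 8.07 and 8.44 in Tet1 KO, against 8.78, 8.72 and 8.88 in WT. The groups did not overlap, and the difference was -0.41 (SE 0.19), but -0.25 without Tet1 KO replicate 2 and -0.04 for the mean of its probe sets. Cxxc1, which binds unmethylated CpG for the SET1 complexes, differed by -0.52 (SE 0.22). Ncoa6, a coactivator subunit of the Kmt2c and Kmt2d complexes, differed by -0.78 (SE 0.40), or -0.31 without Tet1 KO replicate 2, on which it read under the bacterial control.

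Among 14 other histone lysine methyltransferases, 7 read lower and 7 higher (median -0.06), and the 2 partners at an unadjusted limma p under 0.05 were of this list. Setd7, which monomethylates lysine 4 of histone H3, read 8.13, 8.0 and 8.28 in Tet1 KO, against 8.84, 8.74 and 8.41 in WT. The groups did not overlap, and the difference was -0.53 (SE 0.18), or -0.33 for the mean of its probe sets, with an unadjusted limma p of 0.0219 and an adjusted one of 0.686. Kmt5a, which monomethylates histone H4, read 8.75, 8.84 and 8.67 in Tet1 KO, against 9.14, 9.11 and 9.07 in WT. All 3 Tet1 KO arrays were lower, by -0.35 (SE 0.14), with an unadjusted limma p of 0.0395 and an adjusted one of 0.686, but averaging its probe sets gave 0.32. Nsd2, the relative of Nsd1, differed by -0.32 (SE 0.15) without overlap, and averaging its probe sets gave 0.16.

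Among 11 other lysine acetyltransferases, 6 read lower and 5 higher (median -0.15). Kat7, the main acetyltransferase of a complex that marks histone H3, differed by -0.32 (SE 0.16) without overlap. Kat8, which acetylates histone H4, differed by -0.75 (SE 0.51) and the coactivator Kat2b by -0.92 (SE 0.71), and without Tet1 KO replicate 2 these became -0.14 and -0.04. Kat8 read under the bacterial control on that array. Among 8 genes of the complex of ASXL proteins and Bap1, 6 read higher and 2 lower (median 0.14). Asxl2, a paralogue of Asxl1, differed by 0.50 (SE 0.30), or 0.20 without Tet1 KO replicate 2, and the DNA-binding partner Foxk1 by -0.26 (SE 0.14). Asxl3, at 0.25, read under the bacterial control on every array.

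Among 9 factors that bind Crebbp and Ep300, 7 read lower and 2 higher, and the median of -0.33 was 0.02 without Tet1 KO replicate 2. Crtc1, a coactivator of Creb1, read 5.50, 5.63 and 5.57 in Tet1 KO, against 6.49, 6.15 and 5.67 in WT, a difference of -0.54 (SE 0.23) without overlap, or -0.34 without WT replicate 1. Cited2, which competes with other factors for Crebbp and Ep300, differed by -0.58 (SE 0.35), or -0.21 without Tet1 KO replicate 2. Cited1, at -0.33, read under the bacterial control on every array. Of 8 genes known to need Kmt2a in blood progenitors, 6 read lower and 2 higher (median -0.10). The coactivator Eya1 differed by 0.57 (SE 0.24), the homeobox gene Hoxa10 by -0.48 (SE 0.22) and Pbx3, which binds DNA with Hox proteins, by -0.87 (SE 0.45). Without Tet1 KO replicate 2, Hoxa10 differed by -0.27 and Pbx3 by -0.51, and Pbx3 read 4.17 on that array, under its bacterial control. Averaged over the probe sets of each gene, Eya1, Hoxa10 and Pbx3 gave -0.08, -0.18 and -0.14. None of the 3 passed, with adjusted limma p-values of 0.686.

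**Figure D4:**
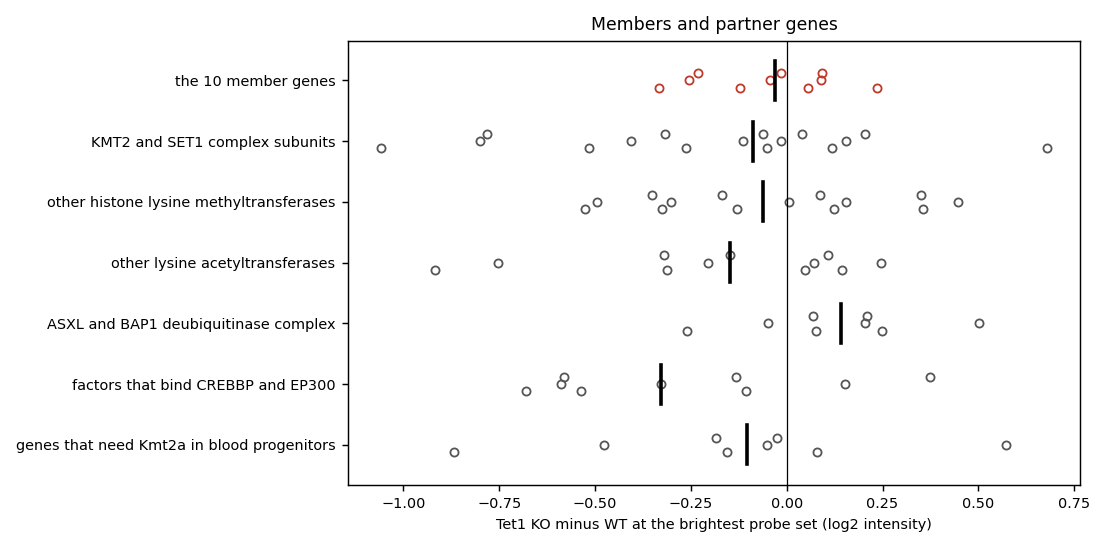
Difference of Tet1 KO minus WT at the brightest probe set (horizontal axis, log2 intensity) for the 10 genes (red) and for the 6 lists of partner genes (grey), 1 point per gene, with the median of each row as a black bar. The members lie between -0.33 and 0.24, and each list has genes on both sides of 0.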

How the data were processed

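Total RNA of LSK cells (125 ng, per the labels' protocols) was measured on Affymetrix arrays. The table deposited by the authors holds log2 intensities of 45101 probe sets on each array, a scale inferred from their range (1.50 to 14.6, array medians within 0.0694). The authors' background correction, normalization and summarization are not given in the sources used here, and the values were used as deposited. The labelling kits named are for whole transcripts, but probe sets carry names of a 3′ design, a mismatch that was not resolved. Samples were grouped by their titles. Gene names came from GEO's annotation of the platform, which can be old and gives 1 symbol to 34945 probe sets.

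Tet1 KO was compared with WT in limma 3.58.1 under R 4.3.3 (lmFit, eBayes, genotype as the only term, two-sided) over 45037 probe sets, leaving out 64 controls, with Benjamini-Hochberg adjustment across all of them. Differences are on the log2 scale, while a fold or a share of the WT level is on the linear scale. Standard errors and 95% intervals are those of the moderated fit, and its code was tested on simulated data. No filter on dim probe sets was applied, and 3 arrays a group limit the precision. The bacterial control level is the brightest of 27 control probe sets on an array. Where 1 value per gene is given, it is that of the probe set with the highest mean. Members, lists and tests were chosen with earlier results of these data known. The rule for named genes took every member probe set, Tet1 and, from each partner list, the 3 genes with the smallest p. Alternatives were other normalizations, filters on level, 1 value per gene, eBayes settings, weights per array, a block for the replicate number, and fits without each array in turn.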

Additional observations from a re-analysis of the deposited data

How the results depend on the processing

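No member probe set and no partner gene had an adjusted limma p under 0.05 under any of the 17 alternatives, and over all probe sets the count became 1 with an intensity trend and 1 with the robust form of it. The count of 1 member probe set at an unadjusted limma p under 0.05 became 2 with each array shifted to the same median. Of all probe sets 6.41% passed there. The count was 0 with either filter on mean level, with 1 value per gene, brightest or mean, and with array weights. In those settings 6.11% to 7.95% of all probe sets or genes passed. The count ran from 0 to 3 when 1 array was left out, with 3.46% to 10.3% over all probe sets. With quantile normalization or cyclic loess the count stayed at 1, but the probe set was Kmt2c 1434178_at in place of Crebbp 1436983_at. Of all probe sets 5.56% and 5.65% passed there. The 3 without Tet1 KO replicate 1 were 2 of Kmt2e and 1 of Crebbp, all lower, where 10.3% of all probe sets passed. The 2 without Tet1 KO replicate 2 were of Kmt2d and Kmt2a, both higher, where 8.01% passed. The count of member genes lower at the brightest probe set, 6, ran from 3 to 6 when 1 array was left out. It was 8 with the mean of each gene's probe sets and 4 with quantile normalization, cyclic loess or array weights. Over all genes 43.5% were lower with all arrays and 47.0% without Tet1 KO replicate 2. That share was not taken under the other alternatives. The median of the members was 0.03 with cyclic loess. Of the 28 probe sets, 16 kept their sign in 10 alternatives, 5 higher (3 of Kmt2c, 1 of Nsd1 and 1 of Crebbp) and 11 lower. The level filters, the trends and the block cannot change these differences. The settings with 1 value per gene were left out of this count. With the mean of its probe sets Nsd1 gave -0.13, against 0.09 at the probe set that kept its sign. With the replicate number as a block the count at an unadjusted limma p under 0.05 was 1, where 5.32% of all probe sets passed. The lowest adjusted limma p over all probe sets was then 0.758. Deviations of samples with the same number correlated at -0.0063 to 0.0127, so the numbers were not taken to pair the samples.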
